A study of Mus musculus with 5 samples.

Results

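Glycolysis and hypoxia response genes were followed through the start of embryo attachment in the luminal layer of the mouse uterus. The set was a fixed list of 39 gene symbols, all of which were found among the 23420 genes counted. It held 4 glucose and lactate transporters, 16 glycolytic enzymes, 5 regulators of glycolytic flux, 4 subunits and prolyl hydroxylases of hypoxia-inducible factor (HIF), and 10 other genes that respond to HIF. RNA-seq had been made from laser-microdissected luminal layer of wild-type C57BL/6N females in natural pregnancy, with the day of the vaginal plug as the first day. There were 5 libraries, 1 for each condition, namely day 3 morning, day 4 morning, day 4 evening, and day 5 morning at a pair of positions. The day 5 positions were luminal layer at a distance from an attached embryo, labelled as the M pole and called away below, and the layer surrounding it, labelled as the AM pole and called around. Nearness to the embryo and pole coincide in the day 5 libraries, so their parts in a difference between the positions cannot be told apart. No agent or mutant allele was carried by any of these mice. Because each condition had 1 library, no difference below has a replicate check and no test was made. Whether several mice were pooled for a library is not given in the sources used here. The 95% intervals given with the differences are exact Clopper-Pearson intervals of a ratio of counts and cover counting error only.

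Glycolysis converts glucose to pyruvate in the cytosol, and lactate dehydrogenase turns pyruvate into lactate when pyruvate is not oxidized in mitochondria. HIF is a transcription factor made of an oxygen-labile alpha subunit and a stable partner. In the presence of oxygen, prolyl hydroxylases mark the alpha subunit for degradation, and when oxygen is low the factor accumulates and binds sites with the core ACGTG or GCGTG. Glucose transporters, most glycolytic enzymes and one of the prolyl hydroxylases themselves are well-known targets. In the uterus, the luminal epithelium lines the cavity in which the blastocyst attaches, and the stroma beneath it decidualizes around the attached embryo.

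The total counts ranged from 15334674 to 19529491, and from 15274 to 15888 genes were counted at least once. The ribosomal gene Rn45s and Lars2 together took 15.0% to 23.2% of the counts. All 14 epithelial markers examined, among them Krt8, Cdh1 and Epcam, were counted in every library. The library around the embryo stood apart from the other 4 in markers of other cells. The 10 markers of embryo and trophoblast summed to between 1.98 and 12.0 CPM (counts scaled to a common library size by TMM) in the other 4 libraries and to 68.4 CPM around the embryo. Of these 10, 6 or 7 were at 0 in each of the other libraries, with Pou5f1, Cdx2, Nanog, Hand1 and Prl3d1 at 0 in all 4. Around the embryo only Prl3d1 was at 0, and Pou5f1 had 68, Cdx2 22 and Eomes 609 counts. The 6 smooth muscle markers summed to at most 31.8 CPM elsewhere and to 395 CPM around the embryo. Most of that sum came from Des alone, with 6090 counts, and Acta2, the next, had 272. The 6 endothelial markers summed to at most 45.5 CPM elsewhere and to 95.9 CPM there, but they did not move together. Cdh5 had 133 counts away and 1229 around, and Pecam1 109 and 124. Kdr, Tek, Emcn and Tie1 had fewer counts around the embryo than away. The 12 stromal markers summed to 588 to 682 CPM elsewhere and to 437 CPM there, and the 6 leukocyte markers to 226 to 327 CPM elsewhere and to 87.3 CPM there. The 7 glandular epithelium markers summed to 245 CPM on day 3 morning, where Aldh1a1 held 4184 counts and each other marker at most 36. They summed to 4.50 CPM in the layer away and to 31.1 CPM around the embryo. Lif, of this list, had 304 counts around the embryo against 2 away. The paper places Lif on day 5 in stroma around the attached embryo, so it need not mark glands there. The part of these cells in the results below was not tested, and fewer cells of a type cannot be told apart from less RNA per cell in such bulk samples.

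The genes of the set differed widely between the day 5 positions, and as widely between day 4 evening and the layer around the embryo. Of the 39 genes, 38 passed a filter of a mean of at least 1 CPM over the 5 libraries, which kept 12915 genes in all. Leaving any library out of that filter removed none of the 38. Around the embryo, 30 of the 38 were at least 2-fold higher than away from it, against 13.4% of all kept genes, and 3 were at least 2-fold lower, against 15.0%. With library totals in place of TMM these counts were 27 and 3, against 9.97% and 21.7% of all kept genes. The median difference of the 38 was 2.06 on the log2 scale, against -0.05 over all kept genes. From day 4 evening to the layer around the embryo, 29 were at least 2-fold higher and 5 lower, against 19.1% and 20.7% of all kept genes, with a median of 2.10 against -0.02. These 2 comparisons share the library around the embryo. In 29 of the 38 the level around the embryo was the highest of the 5 libraries, though for Pdk4 and Mxi1 it was close to that away. The share of all kept genes with their highest level there was not computed. In 23 of the 38 the level around the embryo was at least 2-fold above each of the other 4, against 7.74% of all kept genes.

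The first 2 steps moved few genes of the set, and the step to the layer away moved more. From day 3 morning to day 4 morning, 2 of the 38 were at least 2-fold higher and 5 lower, against 7.47% and 11.5% of all kept genes, and the median was -0.06. From day 4 morning to day 4 evening, 3 were higher and 4 lower, against 7.21% and 6.95%, with a median of -0.19. The shares of the set in these first 2 comparisons, 5.26% higher and 13.2% lower, then 7.89% and 10.5%, were near the background. From day 4 evening to the layer away from the embryo, 12 were higher and 10 lower, against 12.9% and 12.7%, and the median was 0.49. In that step more of the set was past 2-fold than among all genes, in both directions.

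**Figure D1:**
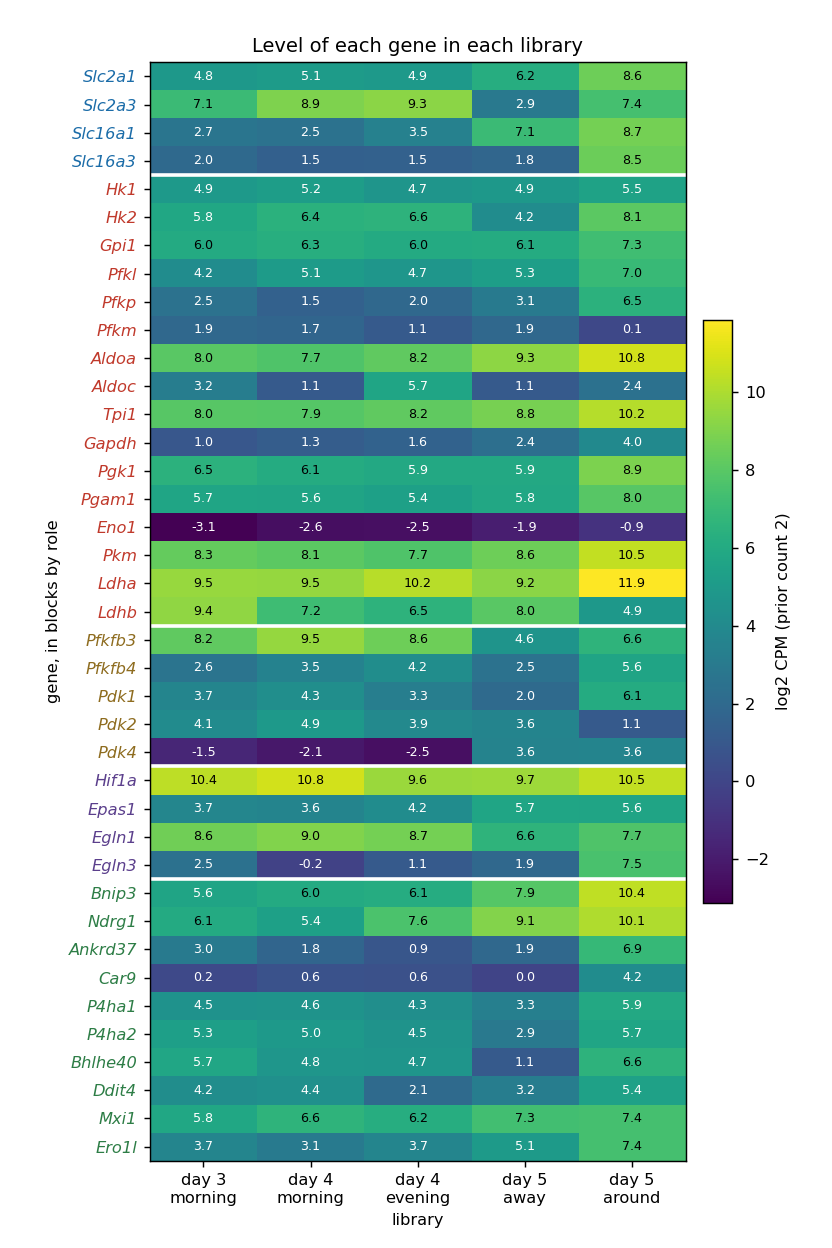
Level of each of the 39 genes (rows, in blocks by role: transporters, enzymes, regulators, HIF subunits and hydroxylases, other HIF-responsive genes) in the 5 libraries (columns), as log2 CPM with a prior count of 2, with the value in each cell. The last column, around the embryo, is the highest of its row for 29 of the 38 genes that passed the filter. The values of Eno1, with at most 7 counts, are set largely by the prior count.

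**Figure D2:**
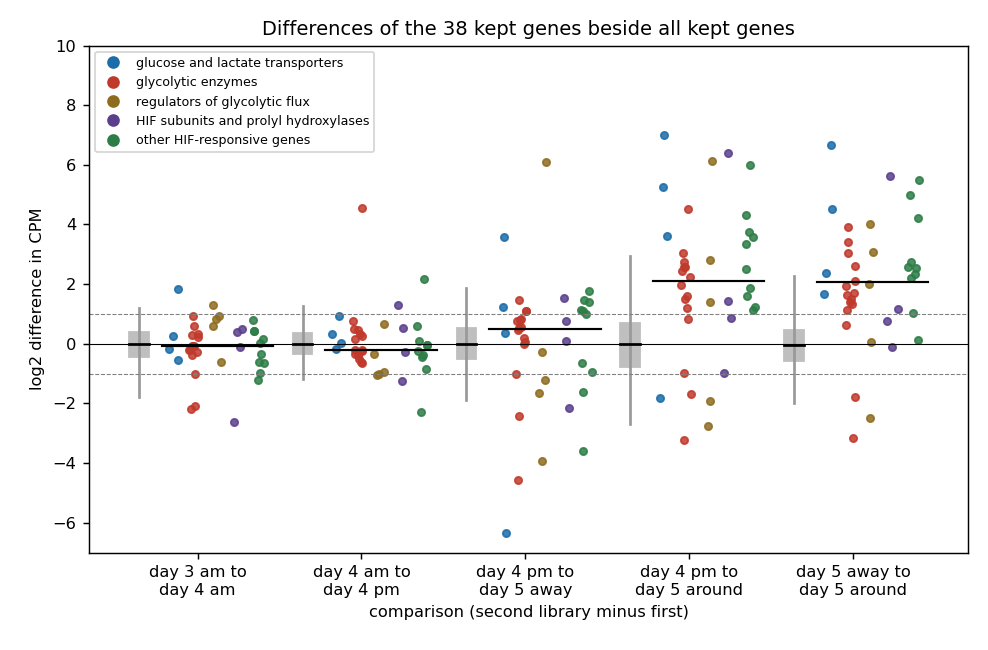
Log2 difference in CPM of the 38 kept genes (points, coloured by role) in the 5 comparisons, second library minus first (am, morning; pm, evening). The black line is their median, the grey box and bar beside them are the 25th to 75th and 5th to 95th percentiles of all 12915 kept genes with their median, and dashed lines mark 2-fold. The medians of the set are 2.10 and 2.06 in the last 2 comparisons and between -0.19 and 0.49 in the first 3.

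In what follows, counts of a gene are listed in the order day 3 morning, day 4 morning, day 4 evening, day 5 away and day 5 around. Differences are on the log2 CPM scale. Levels of different genes are compared in RPKM, which divides by gene length.

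All 4 transporters were at least 2-fold higher around the embryo than away from it. Slc16a3, on chr11:120948484-120959000 of mm10, exports lactate from glycolytic cells, and its counts were 68, 48, 43, 65 and 6225. It was low and nearly level in the first 4 libraries, and it was 6.65 higher around the embryo than away (95% interval 6.34 to 7.07), a ratio of 100.4. Slc16a1, a monocarboxylate carrier that moves lactate in either direction, had 113, 103, 174, 2488 and 7297 counts. It was already 3.59 (3.38 to 3.83) above day 4 evening in the layer away from the embryo and was a further 1.67 (1.60 to 1.73) higher around it. The glucose carrier Slc2a1 had 496, 621, 485, 1351 and 6454 counts. Like Slc16a1, it was above day 4 evening at both day 5 positions, by 1.24 (1.09 to 1.39) away and by 3.61 (3.48 to 3.75) around.

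Slc2a3, the high-affinity glucose carrier, went another way. Its counts were 2393, 8768, 9640, 138 and 2944. It was 1.82 (1.76 to 1.89) higher on the morning of day 4 than on that of day 3, stayed high that evening, and was lower, at -6.34 (-6.62 to -6.12), in the layer away from the embryo. Around the embryo it was 4.51 (4.28 to 4.79) above the layer away but still lower, at -1.83 (-1.89 to -1.77), than on day 4 evening. In RPKM, Slc2a3 made up 75.8%, 90.2% and 92.8% of the pair with Slc2a1 in the first 3 libraries, and 6.22% and 22.9% at the day 5 positions. Slc2a1 was thus the larger of the pair on day 5 at both positions. Per length, the levels around the embryo were 146 RPKM for Slc2a1, 140 for Slc16a3, 95.7 for Slc16a1 and 43.2 for Slc2a3.

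The glycolytic enzymes took a larger share of the library around the embryo than of any other. The 16 enzymes held 0.291% of all counts on day 3 morning (95% interval 0.288 to 0.293), 0.179% on day 4 morning (0.177 to 0.181), 0.238% on day 4 evening (0.235 to 0.240), 0.292% in the layer away (0.289 to 0.294) and 0.863% in the layer around the embryo (0.858 to 0.867). The share on day 3 morning and that away from the embryo had overlapping intervals. Ldha held the largest part of the enzyme counts in 4 libraries, from 28.9% to 48.5%, and Aldoa, with 24.2%, in the layer away from the embryo. This share does not depend on the scaling between libraries.

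**Figure D3:**
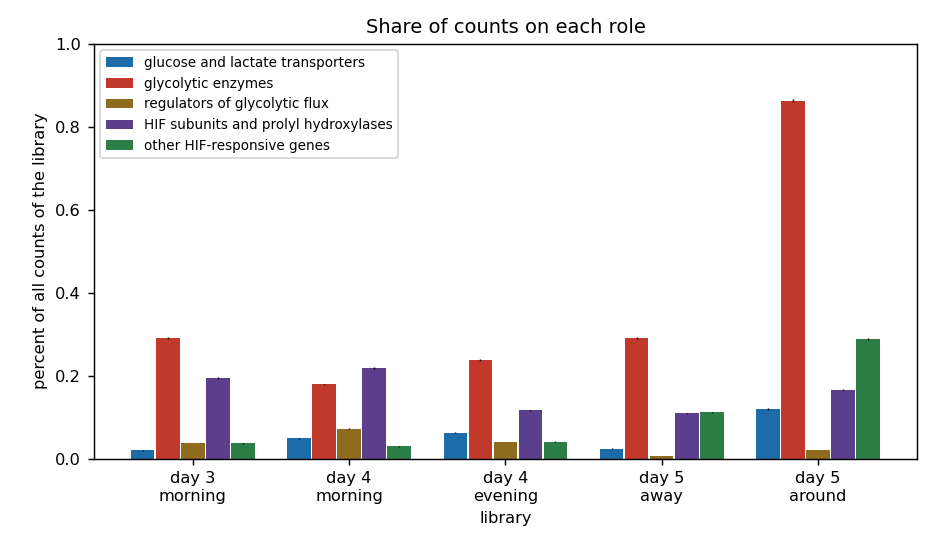
Percent of all counts of a library (bars, from 0) that fell on the genes of each role, in the 5 libraries. Error bars are exact 95% intervals and cover counting error only. The glycolytic enzymes hold 0.863% around the embryo and 0.179% to 0.292% elsewhere, and the 10 other HIF-responsive genes hold 0.288% around the embryo and 0.111% away from it.

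Along the pathway, 12 of the 15 kept enzymes were at least 2-fold higher around the embryo than away, 2 were lower and Hk1 was within 2-fold. At the entry step, Hk2, the inducible hexokinase, had 971, 1533, 1519, 335 and 4727 counts. It was lowest away from the embryo and was 3.93 (3.77 to 4.10) higher around it. Hk1, the constitutive form, had 532, 667, 410, 552 and 792 counts and differed by 0.63 (0.48 to 0.80). Gpi1, which makes fructose 6-phosphate, had 1133, 1373, 1042, 1291 and 2621 counts and was 1.14 (1.04 to 1.23) higher.

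Phosphofructokinase, the committed step, has 3 subunit genes that did not move together. Pfkp had 98, 49, 60, 154 and 1544 counts and was 3.42 (3.20 to 3.69) higher around the embryo. Of its length, 6.92% overlaps exons of Pitrm1 on the other strand. Pfkl, the liver form, had 313, 620, 420, 720 and 2160 counts and was 1.70 (1.58 to 1.82) higher. Pfkm, the muscle form, had 65, 58, 33, 68 and 17 counts and was lower, at -1.77 (-2.75 to -1.10). Pfkp was also lower, at -1.02 (-1.57 to -0.54), on the morning of day 4 than on that of day 3, where its counts were small.

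Of the kept enzymes of the middle and lower steps, all except Ldhb were at least 2-fold higher around the embryo than away. Aldoa, the main aldolase, had 4479, 3778, 4709, 11812 and 30816 counts. Tpi1, which interconverts the triose phosphates, had 4400, 4320, 4735, 8294 and 20046. Pkm, which makes pyruvate, had 5534, 4941, 3403, 7105 and 25024. In these 3 the layer away from the embryo was above every earlier library and the layer around it was the highest, with differences between the positions of 1.498 (1.47 to 1.53), 1.39 (1.35 to 1.43) and 1.93 (1.89 to 1.97). For Aldoa the step from day 4 evening to the layer away, 1.09 (1.04 to 1.14), also passed 2-fold. Pgk1, which makes ATP from bisphosphoglycerate, had 1567, 1238, 938, 1109 and 8376 counts, and Pgam1, the next enzyme, had 906, 899, 665, 1073 and 4304. Both were near their earlier levels away from the embryo and were 3.03 (2.94 to 3.12) and 2.12 (2.02 to 2.22) higher around it.

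Counts of some of these genes are uncertain because other genes hold near-identical sequence. Of the 100-base windows in its annotated transcripts, Gapdh shared 53.1% with 86 other genes, 81 of them pseudogenes. Pgk1 shared 67.0%, Pgam1 39.7% and Bnip3 31.6%. How reads with several alignments were handled is not given in the sources used here. Gapdh, usually among the most abundant mRNAs, had only 32, 42, 45, 94 and 275 counts, and the layer around the embryo was 1.64 (1.32 to 2.02) above the layer away. Eno1, the main enolase, had 0, 1, 1, 3 and 7 counts and did not pass the filter. In the counted gene models, 92.8% of the length of Eno1 is also assigned to Gm5506 on the same strand. The part of these overlaps in the low counts was not tested.

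The lactate dehydrogenase genes moved in opposite directions on day 5. Ldha, on chr7:46845804-46855627, encodes the subunit that favours lactate production, and its counts were 12888, 12762, 19103, 11238 and 63759. It was 2.62 (2.59 to 2.65) higher around the embryo than away, and its value away from the embryo differed from that of day 4 evening by -1.003, at the edge of the 2-fold threshold. Ldhb, on chr6:142490249-142507943, encodes the subunit typical of lactate-oxidizing tissue, and its counts were 11495, 2604, 1479, 4827 and 498. It was lower, at -2.19 (-2.25 to -2.13), on the morning of day 4 than on that of day 3, 1.47 (1.38 to 1.55) higher away from the embryo than on day 4 evening, and lower, at -3.16 (-3.30 to -3.03), around the embryo than away. In RPKM, Ldha made up 42.8%, 76.6%, 89.6%, 60.9% and 98.8% of the pair. The lowest shares were those of day 3 morning and the layer away from the embryo, and Ldha was the larger of the pair in every library except day 3 morning.

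Shares within other isozyme families also differed between the positions. Hk2 made up 33.2% of the hexokinase pair in RPKM in the layer away and 83.0% in the layer around, with 59.9% to 75.2% before attachment. Pfkp made up 15.2% of the phosphofructokinase trio away and 39.8% around, and Pfkm 8.75% away and 0.57% around. Pfkl stayed the largest of the trio, with 76.1% away and 59.7% around. Slc16a3 made up 4.29% of its pair away and 59.4% around. Aldoc, the brain form of aldolase, did not follow Aldoa. Its counts were 160, 37, 800, 38 and 92, so that it was high in the library of day 4 evening alone. It was 4.54 (4.14 to 5.13) higher there than that morning and lower, at -4.56 (-5.14 to -4.16), in the layer away from the embryo. Even then it made up 15.4% of the aldolase pair.

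**Figure D4:**
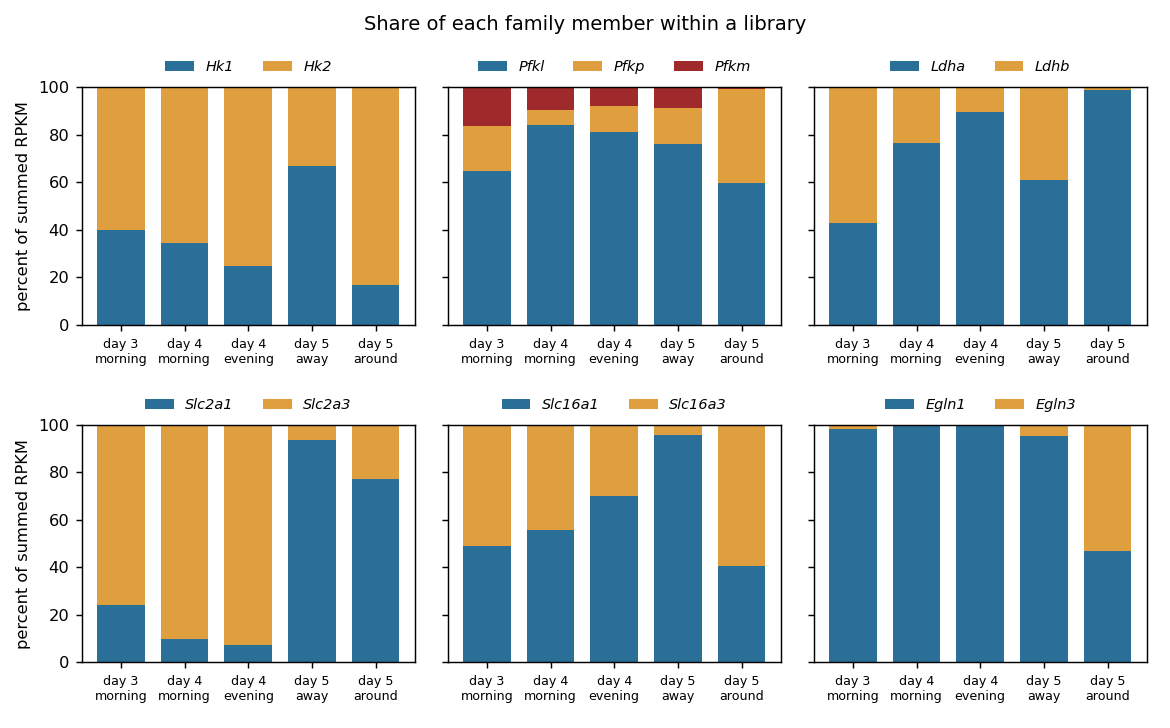
Percent of the summed RPKM of a pair or trio of related genes held by each member (stacked bars, adding to 100), in the 5 libraries, for hexokinases, phosphofructokinases, lactate dehydrogenases, glucose carriers, lactate carriers and prolyl hydroxylases. Between the layer away from the embryo and the layer around it, Ldha goes from 60.9% to 98.8%, Hk2 from 33.2% to 83.0% and Egln3 from 4.75% to 53.1%.

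Among the 5 regulators of flux, Pfkfb3 and Pdk2 had their highest level on day 4 morning, Pfkfb4 and Pdk1 around the embryo, and Pdk4 at both day 5 positions. Pfkfb3 and Pfkfb4 make fructose 2,6-bisphosphate, the main activator of phosphofructokinase. Pfkfb3 had 5143, 13026, 5996, 461 and 1707 counts. It peaked on day 4 morning, 1.29 (1.25 to 1.34) above day 3 morning, and was lower, at -3.93 (-4.08 to -3.80), away from the embryo than on day 4 evening. Around the embryo it was 1.999 (1.85 to 2.16) above the layer away and lower, at -1.93 (-2.01 to -1.86), than on day 4 evening. Pfkfb4 had 105, 207, 292, 107 and 846 counts and was 3.07 (2.81 to 3.40) higher around the embryo than away.

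The pyruvate dehydrogenase kinases keep pyruvate out of the mitochondrial oxidation pathway, and their 3 genes had 3 patterns. Pdk1 had 222, 346, 151, 75 and 1161 counts, lowest away from the embryo and 4.03 (3.73 to 4.42) higher around it. Pdk2 had 295, 548, 235, 228 and 36 counts and was lower, at -2.48 (-3.10 to -2.04), around the embryo. Both were near the 2-fold threshold from day 4 morning to day 4 evening, at -1.005 for Pdk1 and -1.03 for Pdk2. Pdk4 had 4, 2, 1, 223 and 212 counts. It was at or near the counting floor of 3 before attachment, 6.08 higher away from the embryo than on day 4 evening (5.07 to 12.9, against a library with 1 count), and did not differ between the positions beyond counting error, at 0.04 (-0.24 to 0.32). Pdk1 made up 8.11% of the trio in RPKM in the layer away and 74.5% in the layer around.

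Both HIF alpha subunits were within 2-fold between the positions, though the difference of Hif1a lay above the 75th percentile of all kept genes, 0.47. Hif1a, the oxygen-labile alpha subunit, had 22713, 33022, 12191, 15334 and 24170 counts. It was at 162 to 386 RPKM in every library, was lower, at -1.25 (-1.28 to -1.22), on day 4 evening than that morning, and was 0.77 (0.74 to 0.80) higher around the embryo than away, within 2-fold. Epas1, the other alpha subunit, had 229, 221, 283, 975 and 832 counts. It was 1.54 (1.35 to 1.74) higher away from the embryo than on day 4 evening and -0.11 (-0.25 to 0.02) different between the positions. Hif1a made up at least 94.6% of the pair in each library.

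The prolyl hydroxylases, which mark the alpha subunits for degradation, differed from each other. Egln1, the main form in most tissues, had 6853, 9248, 6713, 1794 and 3697 counts, lower, at -2.14 (-2.22 to -2.07), away from the embryo than on day 4 evening and 1.16 (1.08 to 1.24) higher around it. Egln3, a HIF-inducible form on chr12:54178981-54203874, had 93, 14, 33, 68 and 3182 counts. It was lower, at -2.61 (-3.71 to -1.96), on the morning of day 4 than on that of day 3, 1.30 (0.48 to 2.44) higher that evening, and 5.62 (5.32 to 6.03) higher around the embryo than away. In RPKM, Egln3 held 0.20% to 4.75% of the pair in the first 4 libraries and 53.1% around the embryo.

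All 10 of the other HIF-responsive genes were at least 2-fold higher around the embryo than on day 4 evening, and 9 were at least 2-fold higher there than away from the embryo. Bnip3, a receptor for the removal of mitochondria, had 862, 1187, 1106, 4455 and 23973 counts, with a difference between the positions of 2.54 (2.50 to 2.59). Ndrg1, a stress-responsive gene, had 1152, 764, 3038, 9940 and 18625. Both were above day 4 evening at both positions, by 1.77 (1.68 to 1.87) and 1.47 (1.41 to 1.53) away from the embryo. Ndrg1 had already been 2.17 (2.06 to 2.29) higher on day 4 evening than that morning, and its difference between the positions, 1.02 (0.99 to 1.06), lay at the 2-fold threshold.

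Of these 10, Bhlhe40, Ankrd37 and Car9 had the largest differences between the positions. Ankrd37, an ankyrin repeat gene known as a HIF target, had 135, 59, 28, 68 and 2060 counts and was 4.99 (4.69 to 5.41) higher around the embryo than away. Car9, a carbonic anhydrase at the cell surface that is widely used as a mark of hypoxia, had 18, 26, 22, 16 and 310 counts and was 4.22 (3.67 to 5.22) higher. Its level around the embryo, 9.19 RPKM, was the lowest of the 10. Bhlhe40, a transcriptional repressor, had 922, 483, 409, 38 and 1647 counts. It was lower, at -3.59 (-4.19 to -3.18), away from the embryo than on day 4 evening and 5.48 (5.09 to 6.06) higher around the embryo than away.

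P4ha1 and P4ha2, the alpha subunits of collagen prolyl hydroxylase, had 399, 421, 311, 187 and 1037 counts and 701, 569, 368, 139 and 875 counts. Both were lowest away from the embryo, and they were 2.57 (2.36 to 2.82) and 2.75 (2.51 to 3.04) higher around it. Ero1l, an oxidase for disulfide bonds in the endoplasmic reticulum, had 219, 149, 199, 620 and 2931 counts and was 2.35 (2.23 to 2.48) higher. Ddit4, an inhibitor of mTORC1, had 322, 371, 65, 172 and 739 counts. It was lower, at -2.30 (-2.73 to -1.95), on day 4 evening than that morning and 2.20 (1.98 to 2.47) higher around the embryo than away. Mxi1, a Myc antagonist, had 972, 1744, 1170, 2971 and 2979 counts, above day 4 evening at both positions and 0.12 (0.05 to 0.19) different between them.

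**Figure D5:**
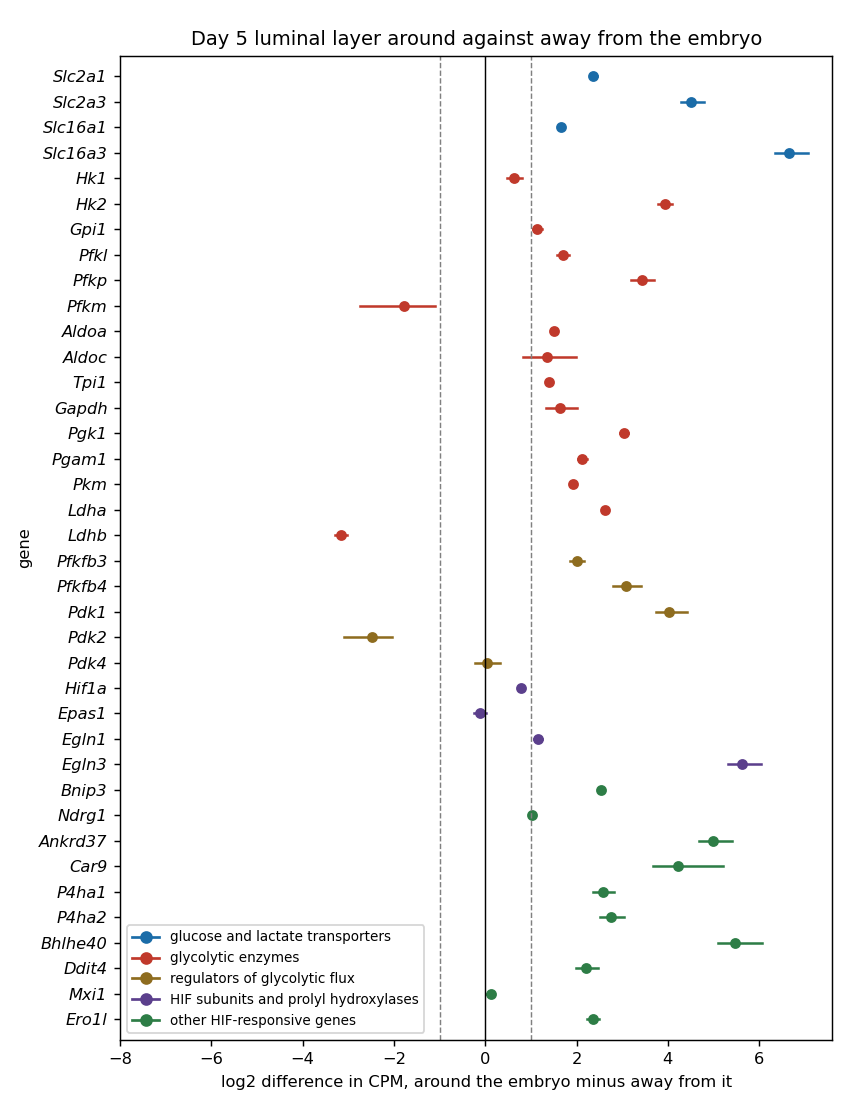
Log2 difference in CPM between the day 5 libraries, around the embryo minus away from it, for the 38 kept genes (points, coloured by role), with exact 95% intervals that cover counting error only. Dashed lines mark 2-fold. Slc16a3 lies farthest to the right at 6.65, Ldhb, Pdk2 and Pfkm lie below -1, and Hk1, Pdk4, Hif1a, Epas1 and Mxi1 lie within 2-fold.

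Markers of cell types also differed between the positions, where 13.4% of all kept genes were at least 2-fold higher around the embryo and 15.0% lower. Of the 14 epithelial markers, 6 were at least 2-fold higher around the embryo than away, 7 were within 2-fold and 1, Calb1, was lower, with a median of 0.92 against 2.06 for the glycolysis and hypoxia genes. Cldn3, with 26917 counts away and 16604 around, Grhl2, with 956 and 649, and Lpar3, with 1102 and 717, were among those within 2-fold. Some markers of other cells passed the filter only through the library around the embryo, where they were high, so that their difference was fixed by the filter. These were Dppa3 of the embryo list, Cnn1 and Myh11 of smooth muscle, and Lif, Prss29 and Spink3 of glandular epithelium. Without them, the 2 embryo and trophoblast markers left, Eomes and Elf5, and the 3 smooth muscle markers left, Acta2, Des and Tagln, were at least 2-fold higher, as was 1 of the 2 glandular markers left. Of 12 stromal markers 5 were lower and 1, Hand2, was higher, and of 6 endothelial markers 2 were lower and 1 was higher. Of 5 leukocyte markers 4 were lower and 1, Cd68, was higher. Their part in the differences of the set was not tested.

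Genes of neighbouring pathways, from lists that do not overlap the 39, did not all follow. Of 26 kept genes in a further list of hypoxia-responsive genes, 16 were at least 2-fold higher around the embryo than away and 2 were lower. The shares of all kept genes were 13.4% and 15.0%. The median of the list was 1.59. Leaving out genes that passed the filter only through the library around the embryo, Lox among them, 14 of 24 were higher. The largest differences were those of Lox, which cross-links collagen, with 7 counts away and 713 around, and Ak4, a mitochondrial adenylate kinase, with 23 and 1929. Edn1, the vasoconstrictor endothelin, had 639 and 12141 counts, Adm, the vasodilator adrenomedullin, 170 and 2667, and Hmox1, a heme-degrading enzyme, 749 and 10967. Vegfa, the angiogenic factor, had 2743 and 9345 counts, a difference of 1.88 (1.82 to 1.95). Pgf, its relative, was lower, at -3.77 (-4.15 to -3.47), with 1176 and 78 counts, and Angptl4 was the other gene that was lower.

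The next lists are short, and their counts are to be read beside the 13.4% of all kept genes that were higher and the 15.0% that were lower. In glycogen metabolism, 4 of 12 kept genes were at least 2-fold higher around the embryo and none lower. They were Gys1, the glycogen synthase, Pgm1, and the phosphatase subunits Ppp1r3b and Ppp1r3c. Of the 11 genes for entry of pyruvate into mitochondria none was higher, and both subunits of the mitochondrial pyruvate carrier were lower, Mpc1 by -1.41 (-1.88 to -1.01) and Mpc2 by -2.22 (-2.42 to -2.04). Of the 8 pentose phosphate genes 1, Pgd, passed 2-fold, at 1.02. H6pd of the same list, which works in the endoplasmic reticulum, had 340, 398, 639, 9877 and 13595 counts, high at both day 5 positions. Of 9 other glycolytic genes 1 was higher and 4 lower, leaving out Pgam2, which passed the filter only through the library around the embryo, of 4 gluconeogenic genes 1 was higher and 2 lower, and of 8 other sugar and monocarboxylate transporters 3 were higher and 3 lower. Among those was Bsg, the chaperone of the lactate carriers, which was 1.09 (1.06 to 1.13) higher, with 8774 and 17288 counts. Of 8 other regulators of the HIF pathway only Hif3a passed 2-fold, with 0 and 5 counts, and the stable partner Arnt had 741 and 689 counts.

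Promoters were examined because so many genes of the set moved together. RefSeq start sites on GRCm38.p6 were matched for 35 of the 39 genes, in 51 windows of the 250 bases before a start. The core ACGTG, on either strand, was present in 27 of the 51 windows (52.9%), against 16.6% of 32851 promoter windows of the same length over all genes and 17.8% of those of protein-coding genes. Overlapping matches, as in the palindrome CACGTG, were counted as 1 site. The other core, GCGTG, was present in 52.9% of the windows, against 28.2% of all windows and 33.8% of those of protein-coding genes. The median GC content was 62.4% in the windows of the set and 52.4% in all windows, and both cores hold a CpG. Of the kept genes with ACGTG in any window, 19 of 23 were at least 2-fold higher around the embryo than away and 2 were lower, with a median of 2.35. Of those without it, 8 of 11 were higher and 1 lower, with a median of 1.39. The 2 lower genes with ACGTG were Pdk2 and Pfkm, and the 1 lower gene without it was Ldhb. The set was listed in part as genes that respond to HIF, so a larger share of windows with a HIF core follows from the choice of genes. That share is a trait of the list and not a result of these libraries. A match of letters is a description and not a bound site. The windows below, each of 250 bases and written 5′ to 3′ on the strand of the gene, show the core ACGTG in genes that differed widely between the positions, with ACGTG or its reverse complement in capitals, and Ldhb is given because it was lower around the embryo and its window held no ACGTG, though it held GCGTG once.
Bnip3, chr7:138909507-138909756, minus strand: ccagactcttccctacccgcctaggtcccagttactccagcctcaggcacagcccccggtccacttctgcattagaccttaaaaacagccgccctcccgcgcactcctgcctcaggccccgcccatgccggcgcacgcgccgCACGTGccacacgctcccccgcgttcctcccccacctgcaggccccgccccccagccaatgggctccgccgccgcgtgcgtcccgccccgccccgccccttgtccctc
Ankrd37, chr8:45999851-46000100, minus strand: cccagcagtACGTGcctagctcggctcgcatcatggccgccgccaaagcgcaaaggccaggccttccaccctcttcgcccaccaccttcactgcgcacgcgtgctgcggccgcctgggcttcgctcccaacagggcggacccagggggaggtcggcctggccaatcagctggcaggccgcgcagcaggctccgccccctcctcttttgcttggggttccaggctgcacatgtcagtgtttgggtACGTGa
Ldha, chr7:46845554-46845803, plus strand: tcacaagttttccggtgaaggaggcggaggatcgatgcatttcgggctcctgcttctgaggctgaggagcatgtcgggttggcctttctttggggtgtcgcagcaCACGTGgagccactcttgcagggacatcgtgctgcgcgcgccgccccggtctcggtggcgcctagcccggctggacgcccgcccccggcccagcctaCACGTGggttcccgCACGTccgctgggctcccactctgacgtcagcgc
Pgk1, chrX:106186850-106187099, plus strand: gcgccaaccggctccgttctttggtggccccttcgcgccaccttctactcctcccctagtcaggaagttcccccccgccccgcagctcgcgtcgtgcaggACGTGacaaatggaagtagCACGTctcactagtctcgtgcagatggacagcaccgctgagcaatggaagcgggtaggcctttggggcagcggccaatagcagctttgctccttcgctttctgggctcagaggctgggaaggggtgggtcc
Hk2, chr6:82774455-82774704, minus strand: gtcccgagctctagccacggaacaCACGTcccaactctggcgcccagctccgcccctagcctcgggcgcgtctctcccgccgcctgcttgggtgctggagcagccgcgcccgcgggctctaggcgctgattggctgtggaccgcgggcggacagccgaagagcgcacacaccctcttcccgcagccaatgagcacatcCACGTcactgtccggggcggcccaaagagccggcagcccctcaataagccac
Slc2a1, chr4:119108495-119108744, plus strand: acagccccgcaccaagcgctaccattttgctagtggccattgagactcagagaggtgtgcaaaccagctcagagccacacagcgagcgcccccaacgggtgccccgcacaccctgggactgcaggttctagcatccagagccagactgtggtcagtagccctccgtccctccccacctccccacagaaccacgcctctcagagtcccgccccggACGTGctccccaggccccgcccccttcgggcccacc
Ldhb, chr6:142507958-142508207, minus strand: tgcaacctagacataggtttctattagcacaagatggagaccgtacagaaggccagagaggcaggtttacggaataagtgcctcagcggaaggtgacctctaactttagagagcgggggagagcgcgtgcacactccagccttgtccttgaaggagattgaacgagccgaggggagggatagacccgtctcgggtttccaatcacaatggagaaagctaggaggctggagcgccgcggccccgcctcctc

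The Ldha window held 3 sites, of which 2 were the palindrome. The Bnip3 window held 1 palindrome whose first base lies 108 bases before the start. Ankrd37 held sites at -241 and -6, Pgk1 at -150 and -131, Hk2 at -226 and -52, and Slc2a1 held 1 site at -36. Among the genes without ACGTG in a matched window were Gapdh, Tpi1, Pfkp and Pdk1, of which Pdk1 was 16.3-fold and Pfkp 10.7-fold higher around the embryo than away.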

How the data were processed

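Luminal layer was cut from wild-type mouse uteri by laser microdissection, and RNA was extracted with the NucleoSpin RNA kit and amplified with SMART-seq v.4. Per the labels and the study's methods, the authors aligned paired-end reads with HISAT2 to GRCm38/mm10 and deposited raw read counts per gene from featureCounts (Subread 2.0.0), with exon coordinates and gene lengths in bases. The annotation, strand setting, read length and handling of multiply aligned reads are not given in the sources used here. Columns with no sample of their own held annotation only.

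From these counts, log2 CPM with TMM scaling and a prior count of 2 were computed (R 4.3.3, edgeR 4.0.16, Python 3.11.15, numpy 2.4.6, pandas 2.3.3), and RPKM with the deposited lengths. The filter kept genes whose mean over the 5 libraries was 1 CPM or more, and a log2 difference of at least 1 in either direction was counted. No dispersion can be estimated from 1 library per condition, so no test was made. Intervals are exact 95% Clopper-Pearson intervals (scipy 1.17.1), and the floor is 3 counts of a library, 0.161 to 0.190 CPM. Intervals and floors cover counting error only. The calculation was tested on simulated data.

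All 39 genes are accounted for. Genes past 2-fold are named with their counts in all libraries, and other genes come only from 8 related lists and the cell type markers. The 39 genes, the lists and the thresholds were chosen with earlier results of these data known. Shared 100-base windows were sought in GENCODE vM21 transcripts, and promoters were read from RefSeq (GRCm38.p6). Alternatives were DESeq2 1.42.0 size factors, library totals with and without Rn45s and Lars2, upper quartile factors, log2(RPKM + 1), a prior count of 0.5, a filter at a mean of 5 CPM, all genes unfiltered, and thresholds of 1.5-fold and 4-fold. Scaling and filtering without the library around the embryo, lists without genes that only that library carried past the filter, and counts without genes that share over 30% of windows, were added after seeing the data. Figures were drawn with matplotlib 3.10.9.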

Additional observations from a re-analysis of the deposited data

Results flagged for a closer look

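In 7 of the 38 kept genes the layer away from the embryo and the layer around it were past 2-fold from day 4 evening in opposite directions. Both differences are taken from the same day 4 evening library, the difference between them is that between the day 5 positions, and it was not tested because each position had 1 library. The share of all kept genes with such opposite differences was not computed, so the count has no background. Of all kept genes, 12.9% were at least 2-fold higher and 12.7% lower away than on day 4 evening, and 19.1% and 20.7% around. Hk2 was at -2.41 in the layer away and at 1.51 in the layer around, which differ by 3.93 on the log2 scale. Bhlhe40 was at -3.59 and 1.88, a difference of 5.48. Pdk1 was at -1.22 and 2.81, a difference of 4.03. Pfkfb4 was at -1.67 and 1.41, which differ by 3.07, and P4ha2 was at -1.63 and 1.12, which differ by 2.75. Ldha was at -1.003 and 1.62, which differ by 2.62, and its value away from the embryo lay at the threshold. Ldhb was the 1 gene with the reverse order, at 1.47 in the layer away and -1.69 in the layer around, a difference of -3.16.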

How the results depend on the processing

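Of 855 values of single genes past 2-fold that were recomputed under an alternative, 0 changed sign, and 168 moved beyond their counting interval. Of the 103 differences past 2-fold, 8 came within 2-fold under at least 1 scaling, prior count or filter, among them Ldha from day 4 evening to the layer away from the embryo and Gpi1, Egln1 and Ndrg1 between the day 5 positions. The log2(RPKM + 1) scale, which shrinks differences of genes at low levels, was left out of that count of 8. The median of the set stayed between 1.75 and 2.12 between the day 5 positions and between 1.75 and 2.15 from day 4 evening to the layer around the embryo. With library totals the median of all kept genes shifted to -0.36 between the day 5 positions, to -0.29 from day 3 to day 4 morning and to 0.23 from day 4 evening to the layer away, and the set is best read relative to that shift. Library totals left 1 gene higher and 6 lower from day 3 to day 4 morning, against 4.16% and 17.1% of all kept genes. From day 4 morning to evening 2 were lower with library totals, against 6.34%, and 2 with log2(RPKM + 1), against 2.32%. Library totals gave 15 higher and 9 lower from day 4 evening to the layer away, against 17.4% and 9.78%. At 1.5-fold, 8 genes were higher and 9 lower in the first comparison, against 17.1% and 20.2% of all kept genes. In the second, 7 were higher and 8 lower, against 14.8% and 15.5%. At 4-fold, 0 were higher and 3 lower in the first, against 1.19% and 4.11%, and 1 was lower in the second, against 1.39%. From day 4 evening to the layer away 2 were higher and 6 lower, against 4.42% and 4.51%. From day 4 evening to the layer around 19 were higher and 2 lower, against 8.92% and 8.67%. Between the day 5 positions 19 were higher at 4-fold, against 5.86%. The other counts stayed within 1.5 times. Without Rn45s and Lars2 in the total, the enzymes' share of counts was 0.342%, 0.233%, 0.299%, 0.343% and 1.04% in the order of the libraries. With counts in place of RPKM, the change in share between the day 5 positions was 29.3 percentage points for Ldha, -22.1 for Slc2a1, 43.5 for Slc16a3 and 42.6 for Egln3. Without a second library for any condition, the spread between animals is unknown, and leaving out replicates was not possible. The libraries' depth set the counting error, which was widest among the kept genes for Pdk4, Car9, Egln3 and Pfkm. No paired analysis was possible because each condition had 1 library.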
